A study of Mus musculus with 6 samples.

Results

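The respiratory chain and the ATP synthase of the inner mitochondrial membrane were read across tip and stalk of the developing mouse ureteric epithelium. Members were all gene symbols beginning with Nduf (complex I), Uqcr (complex III), Cox4 to Cox8 (complex IV), Atp5 (ATP synthase, or complex V) or mt- (the mitochondrial genome), together with the 4 Sdh genes of complex II, and without symbols containing -ps. The rule found 130 symbols, of which 104 of the 21456 symbols with values carried values, 89 of them nuclear and 15 mitochondrial. The 26 without values were 22 mitochondrial tRNAs and Atp5g2, Cox6a2, Cox8b and Cox8c. The samples were CFW mouse kidneys at E16.5 (embryonic stage), from which ureteric cells carrying a Hoxb7-driven green reporter had been taken. Cells also positive for a Wnt11-driven red reporter (Wnt11RFP+;Hoxb7GFP+) formed the tip group and cells negative for it (Wnt11RFP-;Hoxb7GFP+) the stalk group, with 3 libraries each. Both groups therefore carried the same pair of reporters and differed in the sorted marker. Nothing in the labels ties the libraries to separate animals or litters, so p-values measure the spread between these libraries, which may be technical.

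The chain passes electrons from NADH (complex I) or succinate (complex II) through ubiquinone, complex III and cytochrome c to oxygen at complex IV, and the proton gradient that complexes I, III and IV build drives ATP synthesis at complex V. Complexes I, III, IV and V are mosaics of subunits encoded in the nucleus and in the mitochondrial genome, whereas complex II is wholly nuclear. Mature collecting duct cells, which descend from the ureteric stalk, spend ATP on ion transport.

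All levels are RPKM (reads scaled to transcript length and mapped reads by the authors), so levels may be set side by side between genes, with limits. For 11 members more than 50% of the combined level was listed under near-identical copies elsewhere in the genome, described below. Levels of those members may not be comparable with others, and levels of ribosomal RNA may depend on the mRNA kit. Fold changes are tip minus stalk in log2(RPKM + 1), so a negative value means a higher level in stalk. A gene was called where limma's adjusted p was below 0.05. Of the 12532 genes tested, 48.6% were called, of which the tip side took 26.1% and the stalk side 22.5% of all tested. The listed markers of the ureteric tip were all higher in the tip libraries (6 of 6). Wnt11 is among them, and its direction follows from the sort on its reporter. Markers of maturing principal cells (6 of 6 tested), intercalated cells (5 of 5), urothelium (5 of 5) and endothelium (9 of 9) were higher in stalk, but 17 of these 25 had a tip mean under the filter of 1 RPKM and were tested through their stalk values alone, which sets their direction. Nephron progenitor markers went the other way (2 of 2, both with a stalk mean under the filter), and of 3 immune genes 1 was higher in each group. Laptm5, the immune gene higher in stalk, had a tip mean of 0.101 RPKM, under the filter, so its direction was also set. The endothelial list summed to 25.5 to 29.3 RPKM in tip and 69.2 to 112 in stalk. Most of its tip sum came from Egfl7, with means of 18.1 RPKM in tip and 25.1 in stalk. Its fold change was -0.43, against a median of -2.04 over the 9 endothelial genes tested. The sums therefore understate the change of the other endothelial genes. The intercalated list summed to 2.12 to 4.44 RPKM in tip and 268 to 420.5 in stalk. Genes of the immediate early and heat shock response, often induced by tissue dissociation, were higher in stalk for 11 of 17 and summed to 3793 to 5088 RPKM in tip and 5731 to 8624 in stalk. In bulk RNA a larger share of a cell type and more RNA per cell cannot be told apart, and the part of these other cells and of the stress genes in the values below was not tested. The second tip and first stalk libraries lay apart from the others of their groups on the second principal component, which held 9.21% of the variance against 82.9% on the first. Member counts without this pair are given beside the main ones.

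Nuclear and mitochondrial subunits were both higher in stalk. Of 79 nuclear subunits with values 76 were tested, and 47 were called higher in stalk and none in tip (limma, adjusted p below 0.05), against the 22.5% and 26.1% of all genes. At an unadjusted p below 0.05 the count was 51. Without the second tip and first stalk libraries 51 were called, and leaving out any single library gave 37 to 52. All 15 mitochondrial genes with values were called higher in stalk, under each of these omissions too. The median fold change was -0.44 over the nuclear subunits (range -1.94 to 0.08) and -0.66 over the mitochondrial genes (range -0.97 to -0.57), beside 0.05 over all genes tested. The value of -1.94 is that of Cox7a1, which is counted among the calls and orderings here although its direction follows from the filter. The next lowest was -1.35 (Ndufa5). In 54 nuclear subunits and in all 15 mitochondrial genes every stalk library stood above every tip library, an ordering that 26.5% of all genes showed. The reverse ordering, seen in 31.3% of all genes, occurred in no nuclear subunit.

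Added up over a complex, the transcripts showed the same order in each library. The nuclear subunits together reached 5142, 5348 and 5644 RPKM in the 3 tip libraries and 6913, 8206 and 7241 in the 3 stalk libraries. The stalk mean was 1.39 times the tip mean, and the lowest stalk library lay 1.23-fold above the highest tip library. The 13 mitochondrial protein-coding genes summed to 16084, 14773 and 17203 RPKM in tip and 25960.1, 26168 and 23504 in stalk, 1.57 times as high. By complex, the ratio of stalk to tip for nuclear subunits was 1.30 in complex I, 1.405 in complex II, 1.39 in complex III, 1.49 in complex IV and 1.38 in complex V. For the mitochondrial subunits it was 1.57 in complex I, 1.49 in complex III, 1.58 in complex IV and 1.61 in complex V. Tip and stalk libraries overlapped in none of these sums. The sums hold the levels assigned to members with values, so complex V lacks Atp5g2, and near-identical copies are left out.

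**Figure D1:**
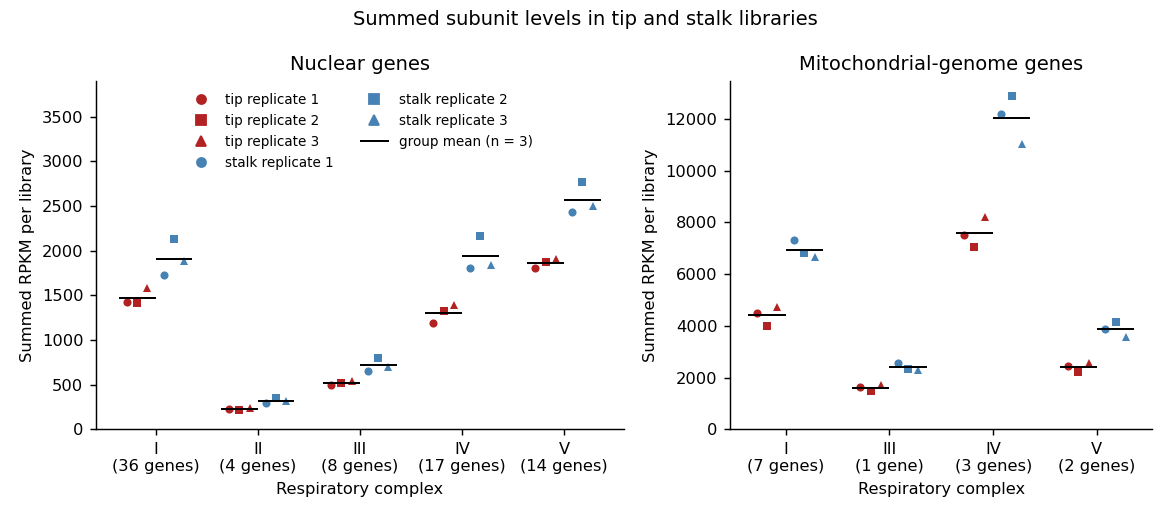
Summed RPKM of the subunits of each complex (vertical axes, linear from 0) for nuclear genes (left) and mitochondrial-genome genes (right), one symbol per library, tip in red and stalk in blue, with lines at the group means (n = 3). The stalk libraries lie above the tip libraries for every complex on both sides, and the second stalk library is the highest in all 5 nuclear sums.

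Both genomes were also set against each other within each library. The summed mitochondrial level divided by the summed nuclear level was 3.13, 2.76 and 3.05 in the tip libraries and 3.755, 3.19 and 3.25 in the stalk libraries. The means were 2.98 ± 0.19 and 3.40 ± 0.31 (SD, n = 3). Each stalk library lay above each tip library, but the second stalk library exceeded the first tip library by less than the spread within either group. The 2 genomes also ranked the stalk libraries differently. The second stalk library was the highest of its group for 67 of 76 nuclear subunits (88.2%, against 39.2% of all genes). The first was the lowest for 53 (69.7%, against 50.6% of all genes). Among the mitochondrial genes the first stalk library was highest for 8 of 15 and the second for 7, and the third was lowest for 12. The shares of all genes were 23.7%, 39.2% and 21.4%, in the same order.

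Complex I, which oxidises NADH, held the lowest share of calls among the nuclear parts of the complexes. Here 15 of 36 subunits were called higher in stalk, against 22.5% of all genes, with a median of -0.33. The core subunits that carry out electron transfer gave 3 of 7 and the accessory subunits around them 12 of 29. Ndufa5, an accessory subunit of the peripheral arm (chr6:24518666-24528013, minus strand), was listed at 24.7, 21.5 and 32.1 RPKM in tip and 56.8, 76.0 and 70.2 in stalk. Those groups were separated widely, with a stalk mean 2.59 times the tip mean (-1.35 ± 0.16 SE, limma adjusted p = 0.000279), the largest change of any complex I member. Ndufv3, an accessory protein of the NADH-binding module, had 20.6, 19.2 and 26.9 RPKM in tip and 37.7, 56.3 and 41.4 in stalk (-0.98 ± 0.18, limma adjusted p = 0.00214). Ndufa6, another accessory subunit, was also the most abundant nuclear complex I transcript by its mean over the 6 libraries, though not in tip alone, and rose from 77.1 ± 8.97 in tip to 133 ± 13.96 RPKM in stalk (-0.78, limma adjusted p = 0.000880).

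Complex II links the chain to the citric acid cycle as succinate dehydrogenase. Its 4 subunits were all called higher in stalk, against 22.5% of all genes. Sdha, the flavoprotein that oxidises succinate, had 62.7, 55.1 and 63.8 RPKM in tip and 72.4, 85.6 and 89.2 in stalk, and Sdhb, the iron-sulfur subunit, 55.7, 53.0 and 53.5 and 68.2, 77.0 and 72.3. The membrane anchors were Sdhc, with 54.3, 53.0 and 58.4 and 71.5, 78.0 and 76.7, and Sdhd, with 55.4, 59.2 and 58.2 and 77.6, 109.7 and 79.99. No tip library reached a stalk library for any of the 4, an ordering that 26.5% of all genes showed. Their fold changes lay close together, at -0.44, -0.42, -0.44 and -0.60, with adjusted p from limma between 0.00368 and 0.0117.

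Complex III oxidises ubiquinol and reduces cytochrome c. Of its 8 nuclear subunits 7 were called higher in stalk (median -0.49), against 22.5% of all genes. Uqcrh, the hinge protein and the most abundant by its mean, had 98.4, 104 and 113 RPKM in tip and 134, 178 and 144 in stalk (-0.52, limma adjusted p = 0.00796). The core protein Uqcrc1 went from 88.1 ± 1.98 to 119 ± 9.28 (-0.43), while its partner Uqcrc2 was listed at 81.7 ± 0.579 and 90.9 ± 5.47 and was not called (limma adjusted p = 0.181). The larger changes fell on small accessory subunits. These were Uqcrb (-0.82), with 8.63, 12.6 and 13.4 in tip and 19.7, 27.8 and 16.6 in stalk, Uqcr11 (-0.68) and Uqcr10 (-0.63). Near-identical copies of Uqcrb, described below, held 65.2% of its combined level. Of 3 tested subunits whose names lie outside the rule, against 22.5% of all genes, 1 was called higher in stalk. This was Cyc1, the cytochrome c1 of complex III, which rose from 95.5 ± 3.67 to 148 ± 17.4 RPKM (-0.62, limma adjusted p = 0.00180).

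Complex IV, cytochrome c oxidase, is built on 3 mitochondrially encoded catalytic subunits and a shell of nuclear ones, several with tissue-specific isoforms. Of the nuclear subunits 11 of 14 tested were called higher in stalk, against 22.5% of all genes, the median being -0.51. Cox7a1 is among the 11, and its direction follows from the filter, as given below. Cox8a was the most abundant by its mean over the 6 libraries, with 204, 241 and 240.4 RPKM in tip and 403, 456 and 405 in stalk, so the stalk mean was 1.84 times the tip mean (-0.88 ± 0.11, limma adjusted p = 0.000260). Cox4i1, the ubiquitous isoform of subunit 4, lay above it in every tip library and below it in stalk by the group means, with 224, 254 and 278 in tip and 346, 414 and 379 in stalk (-0.59, limma adjusted p = 0.00329). Its hypoxia-associated alternative Cox4i2 stayed at or below 1.05 RPKM in every library, and with a mean of 0.63 RPKM was the member just under the filter for testing, which asked for a mean of 1. Ndufa4, named for complex I and counted here with complex IV, passed narrowly (-0.31, limma adjusted p = 0.0426), and lost the call when any of 5 of the 6 libraries was left out.

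Several subunits come as families of isoforms, and the common forms were abundant. Cox6a1 reached 155 ± 9.88 RPKM in tip and 229 ± 20.6 in stalk (-0.56), Cox6b1 120.3 ± 11.8 and 172 ± 33.1 (-0.50), and Cox7a2 54.6 ± 5.40 and 78.6 ± 8.98 (-0.52), all called. The call of Cox6b1 was lost without tip 1 or tip 3. Cox6b2, best known from testis, was at 11.8 ± 3.61 and 14.7 ± 2.57 RPKM and was not called (limma adjusted p = 0.275). Cox7a2l, a relative of Cox7a2 that takes part in supercomplex formation, stood above Cox7a2 in both groups, at 76.8 ± 11.4 and 105 ± 11.9, and was called (-0.45), though not without tip 1 or stalk 2, and Cox7b was not (-0.31, limma adjusted p = 0.116). Cox7b2 was listed at 0 in every tip library and at most 0.144 RPKM in stalk, and Ndufa4l2 had a mean of 0.349 RPKM. Cox7a1, the isoform of heart and skeletal muscle (chr7:30184144-30186078, plus strand), was low in both groups. Its tip values were 0, 1.31 and 0.054 RPKM and its stalk values 3.58, 3.49 and 5.76, with no overlap and the largest fold change of any member (-1.94 ± 0.34, limma adjusted p = 0.00179). At this level the size depends on the pseudocount: with 0.1 in place of 1 the fold change was -3.93. It was also the only tested member whose tip mean lay under the filter, so it passed through the stalk libraries alone and its direction follows from the filter. Muscle markers were near 0 in both groups: the 6 listed genes summed to 0.510 to 1.28 RPKM in tip and 0.510 to 1.08 in stalk, with Tnnt2 at 0 in all tip libraries and Ckm at 0 in all stalk libraries.

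**Figure D2:**
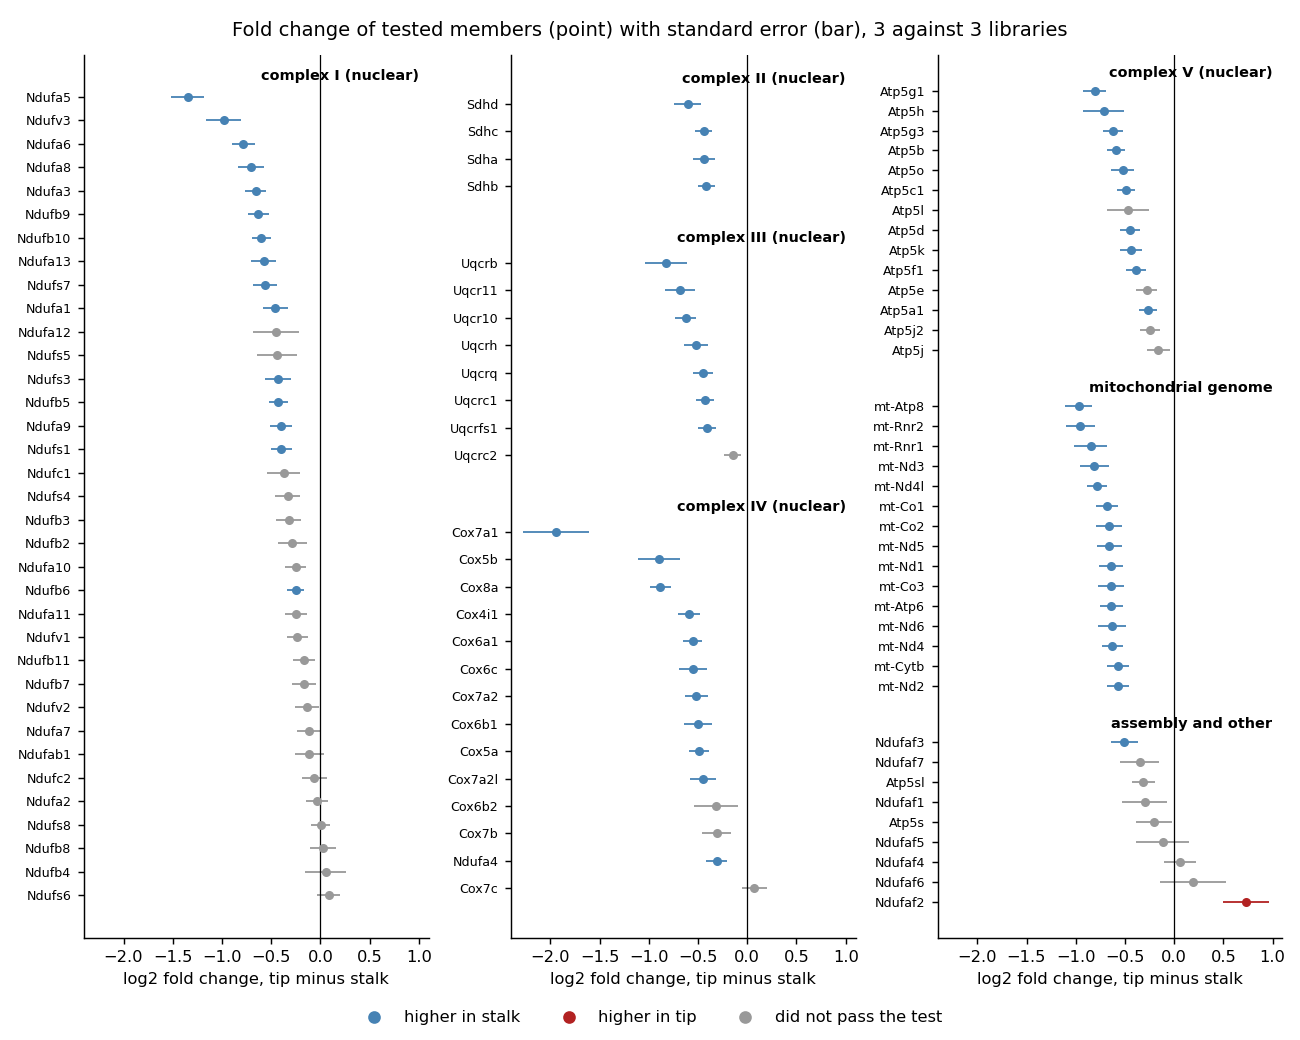
Log2 fold change, tip minus stalk (horizontal axes), of the tested members by complex (1 complex I member not drawn), with points for the estimates and bars for their standard errors (3 against 3 libraries), blue where called higher in stalk, red where called higher in tip and grey where the test was not passed. Nearly all points lie left of 0. Cox7a1 lies farthest left, at -1.94, and Ndufaf2 is the only red point, at 0.73.

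The ATP synthase turns the proton gradient into ATP, the F1 head holding the catalytic sites and the c ring rotating in the membrane. Of 14 nuclear subunits tested 10 were called higher in stalk (median -0.46), against 22.5% of all genes. By part, calls were made for 4 of 5 subunits of the head and central stalk of the enzyme and both c ring genes with values. They were also made for 3 of 4 of the peripheral stalk and 1 of 3 supernumerary membrane subunits. The third c ring gene, Atp5g2, has no value. Its identical copy Gm10231 (means 286 RPKM in tip and 245 in stalk) was higher in every tip library but not called. Atp5b, the catalytic beta subunit, was the most abundant nuclear member, at 513, 559 and 535 RPKM in tip and 793, 846 and 787 in stalk. The lowest stalk library thus lay far above the highest tip library (-0.59 ± 0.09, limma adjusted p = 0.00104). Its alpha partner Atp5a1, present in equal copies in the enzyme, had 338, 346 and 348 in tip and 395, 444 and 405 in stalk. That smaller change was called (-0.27, limma adjusted p = 0.0378), though the call was lost without any 1 of 5 of the 6 libraries. The c ring is encoded by several genes with the same mature protein. Atp5g3 gave 216, 232 and 235 RPKM in tip and 341, 392 and 325 in stalk (-0.63, limma adjusted p = 0.00131), and Atp5g1 14.5, 15.1 and 18.2 and 28.4, 26.7 and 30.6 (-0.81, limma adjusted p = 0.000675). Atp5h of the peripheral stalk rose from 6.63 ± 1.08 to 11.8 ± 3.30 (-0.72, limma adjusted p = 0.0216), a call that was lost when tip 1, tip 3, stalk 2 or stalk 3 was left out. Its most abundant row alone gave -0.06. Atp5l, the member just over the filter, had 1.25, 1.26 and 0.911 in tip and 1.21, 2.57 and 2.27 in stalk and was not called (limma adjusted p = 0.102). Near-identical copies, described below, held 80.8% of the combined level for Atp5g1, 91.8% for Atp5h and 98.5% for Atp5l. With the copies added, the fold changes were -0.57, -0.37 and -0.52.

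Transcripts of the mitochondrial genome, which is copied into long precursor RNAs and cut at its tRNAs, made up 4.27% to 4.90% of the summed RPKM of a tip library and 6.80% to 7.68% of a stalk library. The catalytic oxidase subunit mt-Co1, the most abundant member by its mean over the libraries, had 3034, 2844 and 3088 RPKM in tip and 4958, 4907 and 4513 in stalk, and mt-Co2 and mt-Co3 had stalk means 1.58 and 1.56 times the tip means. Cytochrome b (mt-Cytb) was listed at 1652, 1490.1 and 1694 in tip and 2576, 2321 and 2288 in stalk. Complex I subunits spanned mt-Nd4l, with group means of 116 and 201, to mt-Nd1, with 1233 and 1924 RPKM. Fold changes of the other complex I genes were -0.57 for mt-Nd2, -0.81 for mt-Nd3, -0.63 for mt-Nd4, -0.66 for mt-Nd5 and -0.63 for mt-Nd6. The ATP synthase gene mt-Atp6 had 2149.9, 1964 and 2202 in tip and 3327, 3467 and 3032 in stalk (-0.64).

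The largest changes among these genes were those of mt-Atp8 and the ribosomal RNAs. The small membrane subunit mt-Atp8 was listed at 286, 261 and 349.9 RPKM in tip and 562, 665 and 526 in stalk (-0.97 ± 0.14, limma adjusted p = 0.000668). The large ribosomal RNA mt-Rnr2 had 133, 146 and 165 and 315, 324 and 232 (-0.96), and the small one, mt-Rnr1, 144, 196 and 159 and 351, 314 and 241 (-0.85). In both ribosomal RNAs the third stalk library was the lowest of its group. The libraries were made with an mRNA kit, per the labels, so levels of ribosomal RNA may depend on that selection. Genes on this genome overlap: mt-Atp8 and mt-Atp6 share 43 bases, mt-Nd4l and mt-Nd4 share 7, and mt-Nd5 and mt-Nd6 share 14 on opposite strands. How reads in shared bases were assigned, and whether strand was used, is not given in the sources used here.

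**Figure D3:**
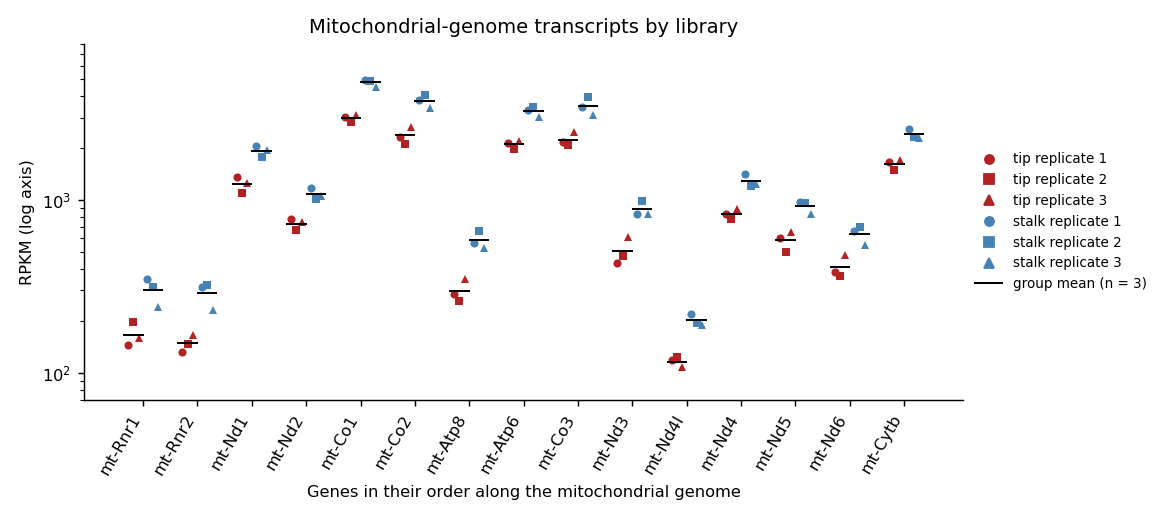
RPKM (log axis) of the 15 mitochondrial-genome genes with values, in their order along the genome, one symbol per library, tip in red and stalk in blue, with lines at the group means (n = 3). The stalk libraries lie above the tip libraries for each gene, from mt-Nd4l (means 116 and 201) to mt-Co1 (means 2989 and 4792).

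Factors that assemble the complexes stay out of the finished enzymes. Of 8 tested under the name rule, 1 was called higher in stalk and 1 in tip, against 22.5% and 26.1% of all genes. Ndufaf2, a chaperone of complex I, was the only member called higher in tip. It had 24.5, 15.3 and 21.1 RPKM in tip and 8.12, 14.6 and 13.2 in stalk, so the second tip library barely exceeded the second stalk library (0.73 ± 0.23, limma adjusted p = 0.0308). This call was lost without tip 1, tip 3 or stalk 1 (limma adjusted p 0.109, 0.0871 and 0.0631), with no filter on mean RPKM (0.0991) and with the replicate number as a block (0.0672). Ndufaf3 rose toward stalk, from 5.50 ± 0.567 to 8.26 ± 0.977 (-0.51, limma adjusted p = 0.0143), and lost its call without tip 1, tip 3 or stalk 3. Atp5sl, an assembly protein named after an ATP synthase subunit, was listed at 18.9 ± 0.755 in tip and 23.8 ± 3.05 in stalk and did not pass (limma adjusted p = 0.0531). Among 37 tested assembly factors with other names, 8 were called higher in stalk (21.6%, near the 22.5% of all genes) and 1 in tip, with a median of -0.18. The copper chaperone Cox17, which serves complex IV, was at 26.7, 32.1 and 38.2 in tip and 54.5, 54.5 and 54.5 in stalk (-0.75, limma adjusted p = 0.00182). Coa4 was also higher in stalk (-0.84), and Cmc2 was higher in tip (0.58).

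Several members have near-identical copies elsewhere in the genome, and the deposited table lists RPKM under both. Aligned to the transcripts of GENCODE M21, 21 members with values had 26 copies with values that matched at 95% identity or more over at least 80% of the copy. For 11 members the copies held more than 50% of the combined level. The stretches below are coding sequence, 60 bases each, with capitals marking the bases at which member and copy differ. For each pair the stretch with the most differences was chosen. It holds 2 of the 3 coding differences for Cox5b and 3 of the 6 for Uqcrb. Reads from stretches without differences fit both genes. For Atp5l and Cox7c the copy matched the whole coding sequence.
Atp5l and its copy Gm10221 (chr5:24581554-24581862): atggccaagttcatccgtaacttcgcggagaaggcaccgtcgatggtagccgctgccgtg
Cox7c and its copy Gm12338 (chr11:75599763-75599954): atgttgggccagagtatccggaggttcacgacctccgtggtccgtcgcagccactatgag
Cox5b: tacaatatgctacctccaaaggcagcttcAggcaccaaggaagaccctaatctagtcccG
Gm11273, the copy of Cox5b (chr13:21501029-21501418): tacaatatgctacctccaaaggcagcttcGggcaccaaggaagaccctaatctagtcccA
Uqcrb: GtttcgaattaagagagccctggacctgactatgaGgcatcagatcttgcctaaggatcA
Gm2962, a copy of Uqcrb (chr1:170925309-170925644): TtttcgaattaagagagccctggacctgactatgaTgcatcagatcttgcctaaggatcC
Coordinates are those of the whole copy in GENCODE M21 (mm10).

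Of 18 copies tested, counting Gm10231 of Atp5g2, 11 were called higher in stalk and none in tip, against 22.5% and 26.1% of all genes. Reads may be shared between copy and member, so these calls do not stand apart from those of the members. Gm10221 and the other copies of Atp5l held 98.5% of the level combined with it, and Gm10221 had 88.9, 84.0 and 86.2 RPKM in tip and 117, 138 and 118 in stalk (-0.52, limma adjusted p = 0.00267), and Atp5l with its copies was called (-0.52). Gm11273, annotated as protein coding, held 92.7% of its level combined with Cox5b, with 87.6, 79.6 and 101 in tip and 129, 144 and 149.8 in stalk (-0.65). For Cox7c, the common subunit with a positive fold change (0.07), Gm12338 held 269.8, 267 and 303 and 269.7, 318 and 272 RPKM and overlapped between groups (-0.03, limma adjusted p = 0.824). The mitochondrial gene mt-Nd4l and its identical nuclear copy Gm10222 had the same value in the third tip library (107) and in the third stalk library (188). Gm12231, the copy of Atp5f1 of the peripheral stalk, was at 46.9, 43.8 and 47.8 in tip and 46.5, 47.6 and 44.1 in stalk, and Atp5f1 lost its call when it was added (-0.38 alone and -0.20 with the copy, limma adjusted p = 0.0943). Atp5g2, the third c ring gene, has no value of its own. Its coding sequence is identical to that of Gm10231, which was listed at 272, 283 and 303 in tip and 216, 265 and 256 in stalk, higher in every tip library but not called (0.22, limma adjusted p = 0.116).

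Adding the copies to their members gave 49 nuclear subunits called higher in stalk, 46 of them among the 47 called before, and none higher in tip. Gm10231 was left out of this step, because Atp5g2 has no value of its own. Fold changes became smaller for Atp5g1 (-0.57), Atp5h (-0.37) and Cox5b (-0.68), and larger for Uqcrb (-0.95). Ndufa12 and Ndufs5, accessory subunits of complex I, gained calls. The levels printed above are those assigned to the member alone, and which gene the reads came from was not tested.

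**Figure D4:**
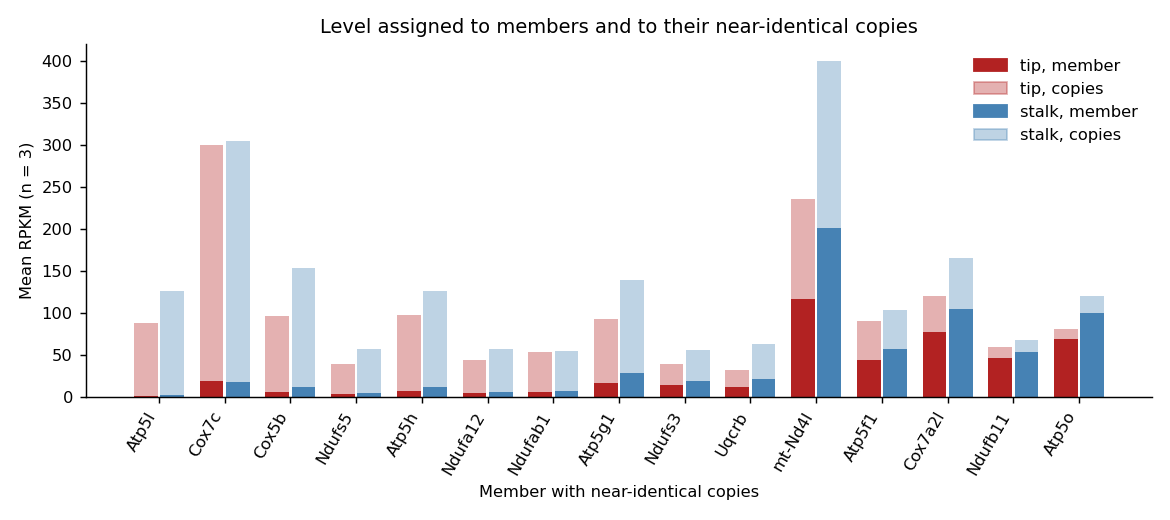
Mean RPKM (n = 3; linear axis from 0) assigned to members (solid) and to their near-identical copies (pale, stacked on top), for the 15 members whose copies held more than 10% of the combined level, tip in red and stalk in blue. Of the combined level the copies hold 98.5% for Atp5l and 93.8% for Cox7c, whose tip and stalk columns are nearly equal.

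Genes that work beside the complexes were followed from fixed lists, to be read against the 22.5% of all genes called higher in stalk and the 26.1% in tip. Of 14 electron carrier genes tested, 4 were called higher in stalk (28.6%) and 1 in tip (7.14%), with a median of -0.25. Coq9, needed for ubiquinone synthesis, had 12.8, 13.0 and 14.3 RPKM in tip and 24.6, 37.8 and 30.8 in stalk (-1.14, limma adjusted p = 0.000474). Etfdh, which feeds electrons from fatty acid oxidation to ubiquinone, had 13.9, 14.7 and 14.8 and 26.1, 28.3 and 28.4 (-0.89), and neither gene overlapped between groups. Pdss1, an enzyme making the ubiquinone tail, was higher in tip (0.66, limma adjusted p = 0.0398). Of 20 other mitochondrial proteins 8 were higher in stalk (40.0%) and 1 in tip (5.0%), with a median of -0.22. The peroxidase Prdx3 went from 11.1 ± 0.487 to 45.0 ± 5.69 (-1.91) and the superoxide dismutase Sod2 from 10.5 ± 0.785 to 19.9 ± 2.33 (-0.86). The chaperonin Hspd1 was higher in tip (0.55, limma adjusted p = 0.00156).

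Another list held genes that copy, maintain and express mitochondrial DNA. Among 26 tested, 6 were called higher in tip (23.1%, near the 26.1% of all genes) and 2 in stalk (7.69%, against 22.5%), with a median of 0.06. Tfam, which packages the mitochondrial genome and starts its transcription, had 22.3, 23.5 and 26.3 RPKM in tip and 15.3, 15.6 and 15.6 in stalk, the tip libraries all being higher (0.60 ± 0.10, limma adjusted p = 0.00156), although all 15 transcripts of that genome were higher in stalk. Fastkd3, a mitochondrial RNA-binding protein, was higher in tip as well (0.63). Higher in stalk were Hsd17b10, a part of mitochondrial RNase P (-0.78), and Fastk (-0.67).

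Nuclear regulators of mitochondrial biogenesis were called in both directions, as genes at large were. Of 10 tested, 5 were higher in stalk (50%, against 22.5% of all genes) and 3 in tip (30%, against 26.1%). Esrra, which encodes the nuclear receptor ERR alpha, had 2.68, 4.20 and 4.60 RPKM in tip and 27.9, 35.8 and 34.7 in stalk, 8.56-fold higher (-2.82 ± 0.18, limma adjusted p = 1.43e-05). Its relative Esrrg had 1.34, 1.99 and 2.04 and 11.8, 16.1 and 11.02 (-2.32). The coactivators followed: Ppargc1a had 3.14, 5.65 and 3.85 in tip and 25.5, 10.7 and 8.02 in stalk (-1.46, limma adjusted p = 0.0117), the first stalk library being the highest, and Ppargc1b was listed at 0.148 ± 0.0654 and 2.03 ± 0.266 (-1.40). Of the 5, Ppargc1b passed the filter on mean RPKM through the stalk libraries alone, so its direction follows from the filter. In contrast, Nrf1, a factor that binds many promoters of respiratory genes, had 15.0, 15.8 and 13.4 RPKM in tip and 8.42, 7.53 and 8.04 in stalk (0.81, limma adjusted p = 0.000580). Gabpb1, a subunit of the ETS factor also called NRF2, had 24.1, 24.3 and 22.4 and 14.5, 10.99 and 11.8 (0.88), and its DNA-binding partner Gabpa was not called (0.15). The third coactivator of the family, Pprc1, was higher in tip (0.71). Sirt3 was higher in stalk, with means of 5.08 in tip and 8.37 in stalk (-0.62, limma adjusted p = 0.0140). Yy1, with means of 51.7 in tip and 42.0 in stalk, was not called (0.29, limma adjusted p = 0.0513).

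**Figure D5:**
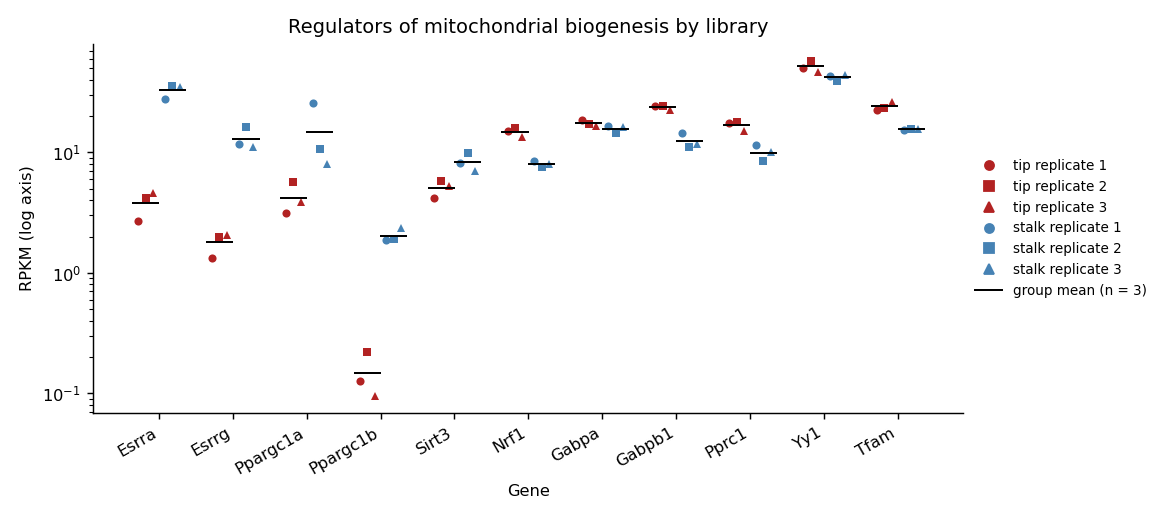
RPKM (log axis) of regulators of mitochondrial biogenesis and Tfam, one symbol per library, tip in red and stalk in blue, with lines at the group means (n = 3). Esrra, Esrrg, Ppargc1a, Ppargc1b and Sirt3 are higher in every stalk library, and Nrf1, Gabpa, Gabpb1, Pprc1, Yy1 and Tfam in every tip library. Gabpa and Yy1 were not called.

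Promoters of the subunits were read for the sites of these factors. RefSeq promoters of GRCm38.p6 (250 bases before to 50 after the start) were found for 66 of the 79 nuclear subunits with values, 1 by an older symbol, and both strands were searched. The NRF1 site, searched as GCGCA, any base and GCGC, was present in 16 of the 66 (24.2%), against 5.19% of all promoters and 12.1% of those of tested genes. The ETS site CCGGAAG occurred in 16 (24.2%, against 9.93% and 20.8%) and the YY1 site AAGATGGCG in 7 (10.6%, against 1.64% and 3.82%). The ERR alpha site TCAAGGTCA stood in 2 (3.03%, against 0.466% and 0.332%), those of Sdhd and Atp5g3. The letters of different motifs searched do not contain one another. A match describes the letters only, and the absence of one says nothing of the factor. Motifs also occurred together: both promoters with the ERR alpha site held an NRF1 site, and that of Sdhd an ETS site too. The 250 bases before the start are printed for a pair of members called higher in stalk, to show how the matches lie. Capitals mark the matches. In Atp5g3 the ERR alpha site reads as the reverse complement TGACCTTGA, beginning 52 bases before the start, and its NRF1 match lies outside the printed stretch. In Cox6a1 the NRF1 matches begin 162 and 117 bases before the start and an ETS match, CTTCCGG, follows.
Atp5g3 (chr2:73911327-73911576, minus strand): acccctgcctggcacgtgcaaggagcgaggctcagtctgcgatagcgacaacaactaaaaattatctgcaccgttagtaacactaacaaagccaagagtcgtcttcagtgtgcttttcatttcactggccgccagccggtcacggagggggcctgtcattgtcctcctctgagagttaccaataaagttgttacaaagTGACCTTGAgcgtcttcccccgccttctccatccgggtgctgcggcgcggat
Cox6a1 (chr5:115348959-115349208, minus strand): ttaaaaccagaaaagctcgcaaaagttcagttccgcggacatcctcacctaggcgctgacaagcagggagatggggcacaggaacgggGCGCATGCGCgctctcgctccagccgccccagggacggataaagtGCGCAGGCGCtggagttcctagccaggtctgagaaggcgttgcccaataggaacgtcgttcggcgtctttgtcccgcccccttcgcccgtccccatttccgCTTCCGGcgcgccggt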

How the data were processed

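RNA from the sorted tip and stalk cells was turned into stranded mRNA libraries (Kapa), per the labels' protocols. The authors deposited 1 table of RPKM values with 1 column for each of the 6 libraries. Per the submitters' processing notes, the tools were bcl2fastq 2.17, TopHat2 and Partek and the build was mm10. The annotation, the quantification settings, the handling of reads that match several places and the use of strand are not given in the sources used here. RPKM values keep no read depth, so no counting intervals or floors are given. The sums per library were 345123 to 366035 RPKM, with 12194 to 12472 genes at 1 RPKM or more. Of 93615 rows, 24545 held question marks instead of values and were dropped. RPKM was summed over the rows of a symbol, and 59 members had more than 1 row.

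Genes averaging 1 RPKM or more over the libraries were fitted with limma 3.58.1 (R 4.3.3) on log2(RPKM + 1), computed from the deposited RPKM, with group as the only term and a variance trend. Tests are two-sided with Benjamini-Hochberg adjustment over 12532 genes and a threshold of 0.05. The fit was tested on simulated data. Sums over a complex have no test, and 3 against 3 libraries allow no exact permutation p below 0.1. Copies were found with blastn 2.17.0 against GENCODE M21 transcripts, and this step was chosen after seeing the data. Named members are all mitochondrial genes, the Sdh genes, isoform families, and per complex the 2 most abundant and up to 3 called members of largest change on each side, of which 1 is not reported here. They include those beside the filter, and from each list of mitochondrial proteins and their regulators up to 2 called genes per side. The cell type and stress lists are given mainly as counts and sums. Ndufa12, Ndufs5, Atp5f1, Cox7c and Uqcrc2, the endothelial gene Egfl7, and the regulators Ppargc1a, Ppargc1b, Gabpa, Pprc1, Sirt3 and Yy1, were named after their values were seen. The members and lists were chosen with earlier results of these data known.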

Additional observations from a re-analysis of the deposited data

How the results depend on the processing

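Alternatives were another pseudocount, other filters, median-ratio scaling, scaling without mitochondrial genes, the most abundant row per symbol, no variance trend, a replicate block, leaving out libraries and, added after seeing the data, the near-identical copies. The nuclear subunits called higher in stalk numbered 37 to 53 across them and none was called higher in tip. Without 1 library each the count ran from 37 (tip 1) to 52 (stalk 1). All 15 mitochondrial genes stayed called except with no filter on mean RPKM, where 9 were. Scaling by median ratios moved the median of all genes by 0.05 or less and the share of tip calls among all calls from 53.8% to 48.9%. Without tip 2 and stalk 1 the ratio of summed levels, stalk over tip, was 1.459 in place of 1.571 for mitochondrial complex I and 1.378 in place of 1.486 for complex III, and the cause was not tested. Leaving out 1 library at a time, these ratios ran from 1.501 to 1.632 and from 1.430 to 1.525. Libraries with the same replicate number did not deviate together (correlations -0.30, -0.34 and 0.09), so the numbers were taken as names. Between unlike numbers the correlations ran from -0.44 to 0.56. The highest were tip 2 with stalk 1 (0.56), tip 3 with stalk 2 (0.40) and tip 1 with stalk 3 (0.33). Whether those libraries belong together was not tested. With the replicate number as a block, 43 nuclear subunits and 15 mitochondrial genes were called, and 2716 of all genes higher in tip and 2380 in stalk. Atp5h depends on how rows are combined: its most abundant row alone gave -0.06 (limma adjusted p = 0.939). Depth is unknown, so low members such as Cox7a1 have no counting error.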
